A study of Mus musculus with 8 samples.

Results

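The genes of the interstitial fibrillar collagens I, III and V were followed through the stromal cells of intact and fractured mouse femur. They are Col1a1, Col1a2, Col3a1, Col5a1, Col5a2 and Col5a3, and all 6 were found among the 28956 genes of the tables. The genes were taken by symbol, but the choice was made with earlier results of these data known. The cells came from wild-type C57BL/6 female mice. Control cells were taken from unfractured femur at 12 weeks of age. Fracture cells came from mice whose left leg was broken by three-point bending at 10 weeks under ketamine and xylazine, held with an intramedullary nail, treated with carprofen as analgesic, and taken at day 14, when they had also reached 12 weeks. Both groups were depleted of haematopoietic cells before encapsulation, neither carried an introduced allele, and whether animals were pooled is not given in the sources used here. Each group held 2 preparations of 2 droplet libraries each, 8 libraries in all, and no sham-operated or nailed but unbroken bone was analysed here, so that the break, the nail and the drugs cannot be told apart.

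Fibrillar collagens are triple helices that cells secrete as procollagens and that assemble outside the cell into the fibrils of bone, skin, tendon and vessel wall. Type I, a heterotrimer of the products of Col1a1 and Col1a2, is the main protein of bone matrix and the chief product of the osteoblast, while cartilage is built mainly on type II. Type III, a homotrimer of the Col3a1 product, is known from distensible tissue and from early repair tissue, and type V, made from the products of Col5a1, Col5a2 and Col5a3, sits within type I fibrils and limits their diameter.

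In the mouse genome (build GRCm38, GENCODE M21) these protein-coding genes lie on 5 chromosomes. Col1a1 is at chr11:94936224-94953042 on the plus strand and Col1a2 at chr6:4504814-4541544 on the plus strand. Col3a1 at chr1:45311538-45349706 (plus) and Col5a2 at chr1:45374321-45503282 (minus) lie tail to tail, 24.6 kb apart. Col5a1 is at chr2:27886425-28039514 (plus) and Col5a3 at chr9:20770050-20815067 (minus). Promoters of 4 of the 6 genes were in the RefSeq table used here (build GRCm38.p6), Col1a2, Col3a1, Col5a1 and Col5a3. The 250 bases before the start of 2 of them are shown, because Col1a2 was among the most abundant transcripts of osteoblast-like cells in both groups and Col3a1 had the largest fold change with fracture of the 6 genes in osteoblast-like, BMSC-like, chondrocyte-like and endothelial-like cells, though not in fibroblast-like or smooth muscle-like cells. The windows end at the transcript starts of the RefSeq table, and that of Col1a2 lies inside the GENCODE span of the gene given above. Capitals mark matches, on either strand, to any of 3 short promoter motifs. The first motif searched was CCAAT, which is known from many promoters. Another motif searched was TATAAA, which is the core of the TATA box. The last motif searched was GGGCGG, which is the core of the GC box bound by Sp1. In these 2 windows no match overlapped another.
Col1a2, chr6:4505368-4505617, plus strand: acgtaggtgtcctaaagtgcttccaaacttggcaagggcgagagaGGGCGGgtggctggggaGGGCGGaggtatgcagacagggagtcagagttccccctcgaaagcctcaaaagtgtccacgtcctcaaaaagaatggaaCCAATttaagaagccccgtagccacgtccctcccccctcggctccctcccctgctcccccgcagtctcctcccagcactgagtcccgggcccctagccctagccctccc
Col3a1, chr1:45311288-45311537, plus strand: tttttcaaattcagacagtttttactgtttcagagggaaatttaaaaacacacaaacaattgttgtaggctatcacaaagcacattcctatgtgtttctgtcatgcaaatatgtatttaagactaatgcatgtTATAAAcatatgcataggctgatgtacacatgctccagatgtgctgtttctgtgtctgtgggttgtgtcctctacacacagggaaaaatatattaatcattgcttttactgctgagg
The Col1a2 window held 1 CCAAT and 2 GGGCGG and was 62% G or C. The Col3a1 window held 1 TATAAA and neither of the other motifs, and was 35.2% G or C. Of 32536 promoter windows of the same length, 33.8% held a CCAAT, 12.3% a TATAAA and 33.0% a GGGCGG. The Col5a1 window, 76.4% G or C, held GGGCGG once on each strand, and that of Col5a3 held 1 CCAAT and 2 GGGCGG on its other strand.

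The deposited tables gave unique molecular identifier (UMI) counts, each UMI standing for 1 captured transcript, with 56543151 to 89126291 UMIs per library. Of 48903 barcodes, 45328 passed the filters on genes and mitochondrial UMIs. Cells were clustered with the 6 genes left out of the clustering and of every marker list, and clusters were named from markers. All 8 measured chondrocyte markers, 7 of 8 osteoblast markers, all 7 markers of bone marrow stromal cells (BMSC), 6 of 7 fibroblast markers, all 5 endothelial, all 5 smooth muscle and all 8 erythroid markers were carried by the clusters given those names. Median depth per kept cell was 7711 UMIs in Control and 11351 in Fracture, the smallest deposited barcode held 1 UMI in Control and 1929 in Fracture, and 10 to 23 barcodes were shared between any pair of libraries. Levels are given as CPM, the UMIs of a gene per 1000000 UMIs of all cells of a class in 1 preparation. Counts from the 3′ end of transcripts were not divided by length, so levels were compared between classes and groups, and not between genes.

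Erythroid-like cells served as the check of free RNA, because red cell precursors are not known as makers of fibrillar collagen. Col5a1 is an exception given below. Over the whole class, Col1a1 was at 2689 and 1294 CPM in Control preparations 1 and 2 and at 14807 and 11341 CPM in Fracture preparations 1 and 2, an order kept throughout. These sums came mostly from few cells. The 20% of erythroid-like cells richest in osteoblast markers held 85.2 and 89.2% of the class's Col1a1 UMIs in Control and 95.3 and 95.4% in Fracture, and the median cell held 588, 166, 668 and 596 CPM in the same order of preparations. The cells that remained were taken as the free RNA level, a choice made after the whole-class values were seen, and calls were also recomputed with the whole-class level subtracted. Leaving out cells by osteoblast markers also takes out osteoblast RNA, so this level may be too low. In Control preparation 1, the 178 barcodes of up to 500 UMIs held Col1a1 at 4495, Col1a2 at 2956 and Col3a1 at 363 CPM. Fracture had 0 such barcodes, and what they held was not tested.

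In these remaining erythroid-like cells Col1a1 was at 437 and 149 CPM in Control and at 906 and 646 CPM in Fracture. Col1a2 was at 340 and 107 CPM against 792 and 649 CPM, and Col3a1 at 7.28 and 0.958 CPM against 171 and 138 CPM. The level of these 3 genes, taken as free RNA, was thus higher in both Fracture preparations than in either Control preparation. The cells compared were not alike, since their mean erythroid marker share was 1.241 and 3.417% in Control and 18.47 and 19.96% in Fracture. The part of this unlikeness in the higher Fracture level was not tested. Col5a1 was at 72.5 and 74.9 CPM in Control and at 95.2 and 98.2 CPM in Fracture. Col5a2 was at 31.6 and 6.53 CPM against 76.1 and 72.6 CPM, and Col5a3 at 0.839 and 0.174 CPM against 1.92 and 2.17 CPM. For Col5a1 this level is not read as free RNA shared by all classes, because Control endothelial-like cells had less of it (25.1 and 19.3 CPM), and the cells left out held 22.2 and 10.3% of the Control erythroid-like UMIs of Col5a1 against 85.2 and 89.2% for Col1a1. For the 5 other genes, class levels near these values cannot be told apart from free RNA.

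**Figure D1:**
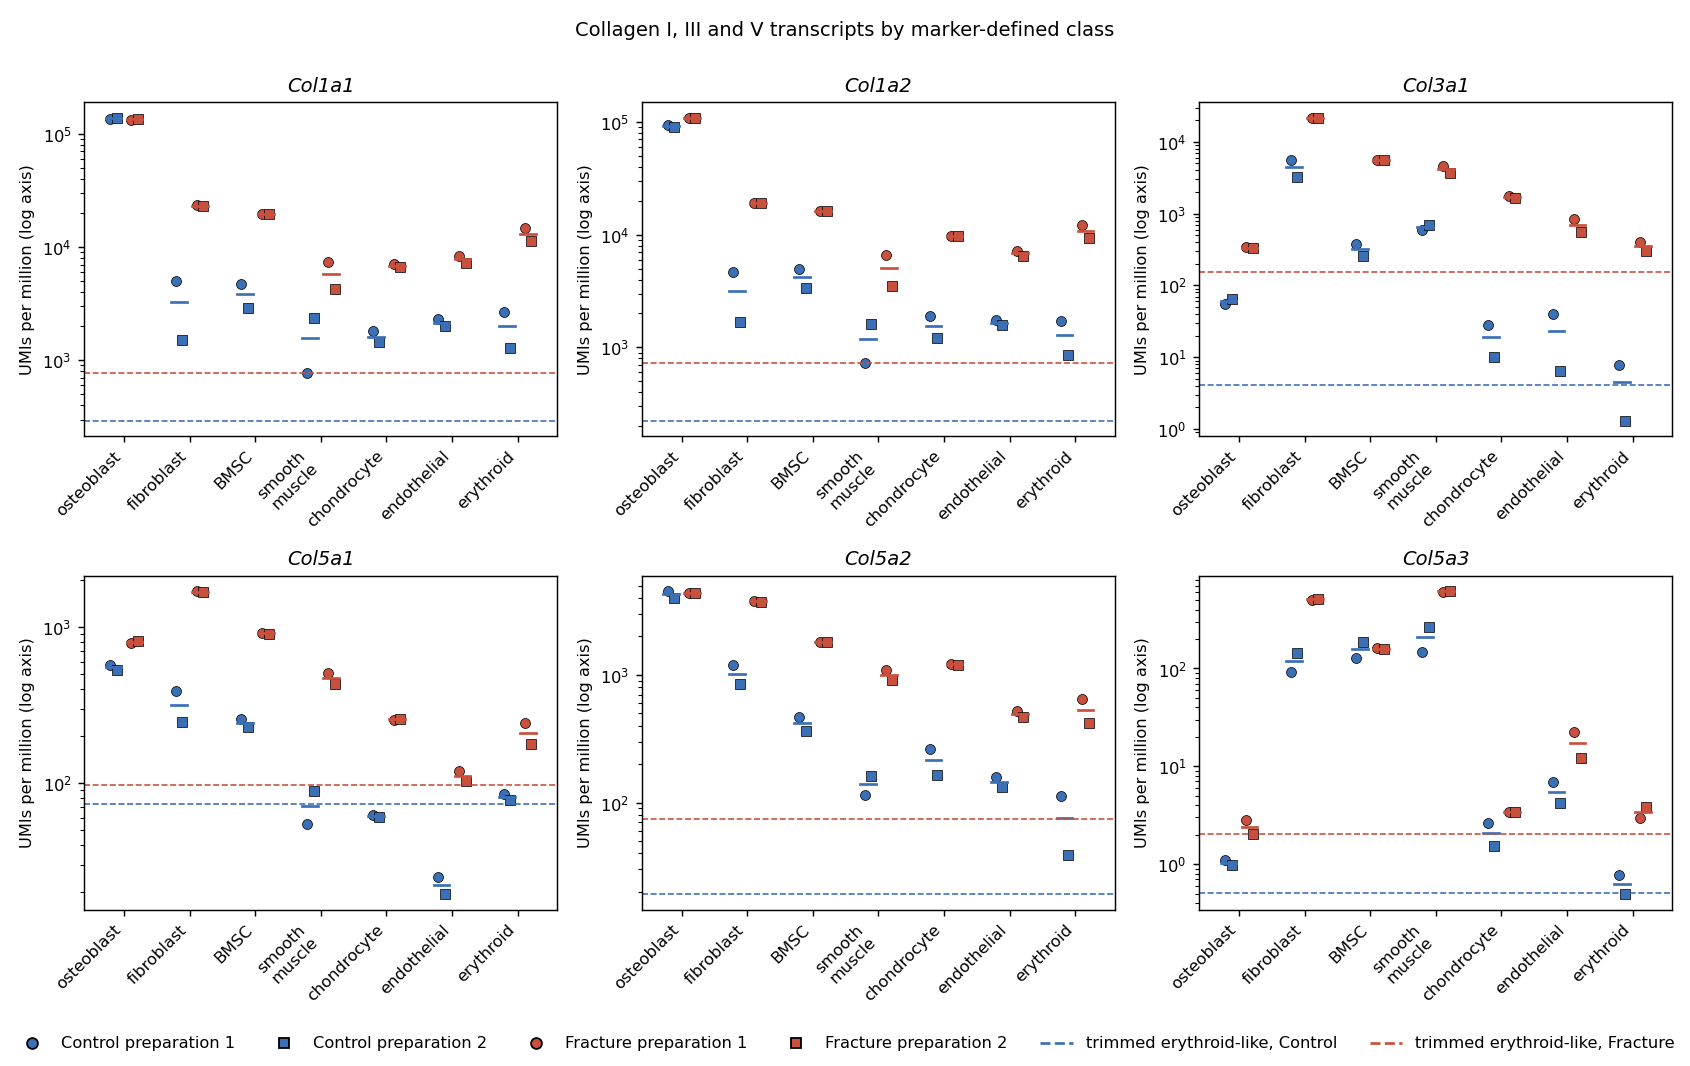
Level of each collagen gene (CPM, log axis) in 7 marker-defined classes. Each point is 1 preparation, each short line the mean of the 2 preparations of a group, and dashed lines the mean level in the trimmed erythroid-like cells, taken as free RNA for all genes but Col5a1. Osteoblast-like cells lead for Col1a1 and Col1a2 in both groups, fibroblast-like cells for Col3a1, and the Fracture points of Col3a1 lie above the Control points in every class shown.

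Collagen I was dominated by osteoblast-like cells, with and without fracture. Col1a1 (the more abundant chain of the collagen I trimer) was at 135727 and 139131 CPM in Control osteoblast-like cells and at 131920 and 135549 CPM in Fracture. Col1a1 therefore made up 13.6% of all UMIs of this class in Control preparation 1. Col1a2, the partner chain, was at 93148 and 90742 CPM in Control and at 107404 and 109466 CPM in Fracture. Both Fracture preparations lay below both Control preparations in Col1a1 and above them in Col1a2, but edgeR's quasi-likelihood test over preparations called neither difference. The log2 fold change (Fracture over Control, here and throughout) was -0.10 ± 0.53 (SE, adjusted p = 0.91) for Col1a1 and 0.17 ± 0.45 (adjusted p = 0.81) for Col1a2. With n = 2 preparations per group and SEs of this size, a moderate change in osteoblast-like cells could have gone unseen, and p-values here measure only the spread between these preparations. Median depth in this class was 19058 UMIs in Control and 11533 in Fracture. The levels and tests, also those against other classes below, therefore compare shares of UMIs and not UMIs per cell.

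Outside the osteoblast-like class collagen I was higher in Fracture. In fibroblast-like cells Col1a1 was at 5019 and 1514 CPM in Control and at 23292 and 22991 CPM in Fracture. The fold change was 7.40 (log2 2.89 ± 0.65, adjusted p = 0.046). The 2 Control preparations differed more than the 2 Fracture preparations, and the log2 value was 4.06 without Control preparation 1 and 2.26 without Control preparation 2. In BMSC-like cells Col1a1 was at 4732 and 2894 CPM in Control and at 19465 and 19411 CPM in Fracture (log2 2.54 ± 0.41, adjusted p = 0.0088).

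Chondrocyte-like cells held Col1a1 at 1800 and 1441 CPM in Control and at 7044 and 6670 CPM in Fracture (log2 2.23 ± 0.15, adjusted p = 0.0025). Their Col1a2 was at 1899 and 1217 CPM in Control and at 9724 and 9696 CPM in Fracture (log2 2.79 ± 0.25, adjusted p = 0.0044). For both genes the groups did not overlap. The Fracture levels were below the whole erythroid-like level in Col1a1 and beside it in Col1a2 (12240 and 9370 CPM), and with that level subtracted the Col1a2 value was log2 -0.59, not called, while too little Col1a1 was left to test. No Col1a2 was left in Fracture preparation 1, so the sign of that value is not read. The 20% of chondrocyte-like cells richest in osteoblast markers carried much of the Control signal, since without them Col1a1 was at 346 and 181 CPM in Control, at or near the free RNA level, and at 5349 and 5020 CPM in Fracture. In the Fracture chondrocyte-like class even the median cell held 2096 and 2061 CPM of Col1a1, against 668 and 596 CPM in the median erythroid-like cell of the same preparations.

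Smooth muscle-like cells held Col1a1 at 775 and 2345 CPM in Control and at 7318 and 4287 CPM in Fracture, with no overlap between groups. The test gave log2 1.91 ± 0.55 with adjusted p = 0.0504 and was not called, while Col1a2 was called in the same cells (log2 2.12 ± 0.47, adjusted p = 0.024). The size of both depended on the Control preparation kept, at log2 1.33 for Col1a1 and 1.66 for Col1a2 without Control preparation 1 and 2.92 and 2.81 without Control preparation 2. Col1a2 fell short of the threshold when the free RNA level was subtracted and when libraries were not integrated before clustering (log2 1.19). Without integration the smooth muscle-like Col1a1 level was higher in both groups, at 8949 and 4054 CPM in Control and 14825 and 13175 CPM in Fracture (log2 1.11, not called).

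In endothelial-like cells the class sums of Col1a1 stood at 2300 and 2000 CPM in Control and at 8357 and 7252 CPM in Fracture (log2 1.98 ± 0.17, adjusted p = 0.0068). The median endothelial-like cell was at 484 and 212 CPM in Control and at 610 and 602 CPM in Fracture, where the median erythroid-like cell was at 588, 166, 668 and 596 CPM. Without the 20% of cells richest in osteoblast markers, Fracture endothelial-like sums were 1366 and 1081 CPM, above the 906 and 646 CPM of the erythroid-like cells trimmed in the same way. After each cell was thinned to 1000 UMIs, 52.4 and 52.8% of Fracture endothelial-like cells had a Col1a1 UMI, against 55.1 and 49.5% of erythroid-like cells, at median depths of 7531 and 8119 UMIs in the former and 7390 and 7316 UMIs in the latter. The erythroid-like shares are those of the whole class, and the part of free RNA in the endothelial-like shares was not tested. Without thinning the shares were 97.5 and 98.2% against 99.1 and 95.8%.

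In Control the BMSC-like cells (3813 ± 1300 CPM, SD) overlapped the fibroblast-like cells in Col1a1 and lay above the endothelial-like, erythroid-like, chondrocyte-like and smooth muscle-like cells, among which neighbours in the order overlapped down to the smooth muscle-like mean (1560 ± 1110 CPM). In Fracture the order of Col1a1 was osteoblast-like, fibroblast-like, BMSC-like, the whole erythroid-like class, endothelial-like, then chondrocyte-like and smooth muscle-like cells. Smooth muscle-like cells, at 7318 and 4287 CPM, overlapped both chondrocyte-like and endothelial-like cells. The places of BMSC-like and smooth muscle-like cells depend on the integration. Without it Control levels of Col1a1 were 9098 and 5603 CPM in BMSC-like cells and 8949 and 4054 CPM in smooth muscle-like cells, which overlap. In Fracture they were then 15321 and 14891 CPM and 14825 and 13175 CPM, and smooth muscle-like cells lay above the erythroid-like, endothelial-like and chondrocyte-like cells.

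Collagen III belonged to the fibroblast-like class in both groups. Col3a1 was at 5593 and 3271 CPM in Control fibroblast-like cells, ahead of smooth muscle-like cells at 600 and 704 CPM and of BMSC-like cells at 383 and 253 CPM, and these 3 classes did not overlap. In Fracture the fibroblast-like cells held 21839 and 21360 CPM (log2 2.36 ± 0.38, adjusted p = 0.023), and in every other class both Fracture preparations also lay above both Control preparations. Of Fracture fibroblast-like cells 99.0 and 98.6% had a Col3a1 UMI at 1000 UMIs per cell, against 66.1 and 55.6% in Control. The erythroid-like shares were 16.4 and 15.3% in Fracture and 1.26 and 0.169% in Control, and without thinning the fibroblast-like shares were 99.9 and 99.9% against 80.2 and 76.1%. Of all Control cells 304 fell under 1000 UMIs and were left out of the thinned shares, and of Fracture cells 0.

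Among the 6 stromal and endothelial classes the largest fold change was that of Col3a1 in chondrocyte-like cells. Col3a1 was at 28.3 and 10.2 CPM there in Control and at 1742 and 1675 CPM in Fracture, a fold change of 98.3 (log2 6.62 ± 0.60, adjusted p = 0.0045). The Control values are low, and the log2 value ran from 6.08 without Control preparation 2 to 7.53 without Control preparation 1. Col3a1 UMIs were in 1.79 and 1.04% of Control cells and in 62.4 and 61.7% of Fracture cells at 1000 UMIs per cell, where erythroid-like cells gave 1.26 and 0.169% against 16.4 and 15.3%. Both groups' Col3a1 levels were above the trimmed erythroid-like level of their group, and the Control share was close to the erythroid-like one in preparation 1 and above it in preparation 2. The whole erythroid-like class also had more Col3a1 in Fracture, by log2 6.78 ± 0.92 (adjusted p = 0.078), at a level of 408 and 298 CPM. Medians of depth were 14260 and 18194 UMIs in Control and 12282 and 13182 UMIs in Fracture, and without thinning the shares were 9.61 and 5.18% against 91.2 and 91.7%.

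The chondrocyte-like class was made of 2 clusters that took different shares of it by group. A cluster led by Col10a1 and Ihh held 1224 and 425 cells in Control against 5665 and 5938 in Fracture, and a cluster led by Serpina1 genes held 846 and 251 against 1145 and 1205. The split of Control cells depends on the integration. Without it the cluster with Col10a1 and Ihh among its leading genes held 344 and 120 Control cells, and that led by Serpina1 genes 1642 and 523. Levels within the clusters made without integration were not computed. Col3a1 rose within both clusters made with integration. It went from 44.4 and 13.2 CPM to 1947 and 1871 CPM in the first cluster (log2 6.15 ± 0.69, adjusted p = 0.0064) and from 4.23 and 5.33 CPM to 634 and 591 CPM in the second (log2 7.13 ± 0.17, adjusted p = 0.0027). At 1000 UMIs per cell, 70.8 and 70.1% of Fracture cells of the Col10a1 Ihh cluster had a Col3a1 UMI but only 20.9 and 20.4% of the Serpina1 cluster, little above the erythroid-like 16.4 and 15.3%. In each cluster 5 of the 6 members were called, all of them higher, where 16.5% and 7.90% of all genes tested were called higher. The log2 value of Col1a1 was 1.03 in the Serpina1 cluster and 2.54 in the Col10a1 Ihh cluster, and that difference was not tested.

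BMSC-like cells held Col3a1 at 383 and 253 CPM in Control and at 5542 and 5638 CPM in Fracture, a fold change of 20.1 (log2 4.33 ± 0.28, adjusted p = 0.0017). The cells that bear this name depend on how libraries were joined. Without integration 577 and 622 Fracture cells were BMSC-like instead of 1018 and 1083, and the log2 values became 2.04 for Col3a1, 1.19 for Col1a1, 1.11 for Col1a2, 0.56 for Col5a1 and 1.13 for Col5a2, all still called. In smooth muscle-like cells Col3a1 rose to 4658 and 3702 CPM (log2 2.699 ± 0.20, adjusted p = 0.0016).

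Endothelial-like and osteoblast-like cells had little Col3a1. In endothelial-like cells it was at 40.2 and 6.40 CPM in Control and at 831 and 552 CPM in Fracture (log2 5.02 ± 0.96, adjusted p = 0.022), with a log2 value of 4.22 without Control preparation 2 and 6.86 without Control preparation 1. The thinned share of endothelial-like cells with a Col3a1 UMI in Fracture, 17.1 and 17.2%, was little above the erythroid-like 16.4 and 15.3%, and the call was lost once the 20% of cells richest in osteoblast markers were left out, although the log2 value was 5.03. In osteoblast-like cells Col3a1 was at 54.4 and 65.5 CPM in Control and at 342 and 333 CPM in Fracture (log2 2.42 ± 0.13, adjusted p = 0.0025). The Fracture level lay among those of the whole erythroid-like class (408 and 298 CPM) and lay above its trimmed level. Subtracting the former turned the log2 value to -1.68, and subtracting the latter left 1.64, still called. The former was above the osteoblast-like level in Fracture preparation 1, where nothing was left, so the sign of -1.68 is not read.

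**Figure D2:**
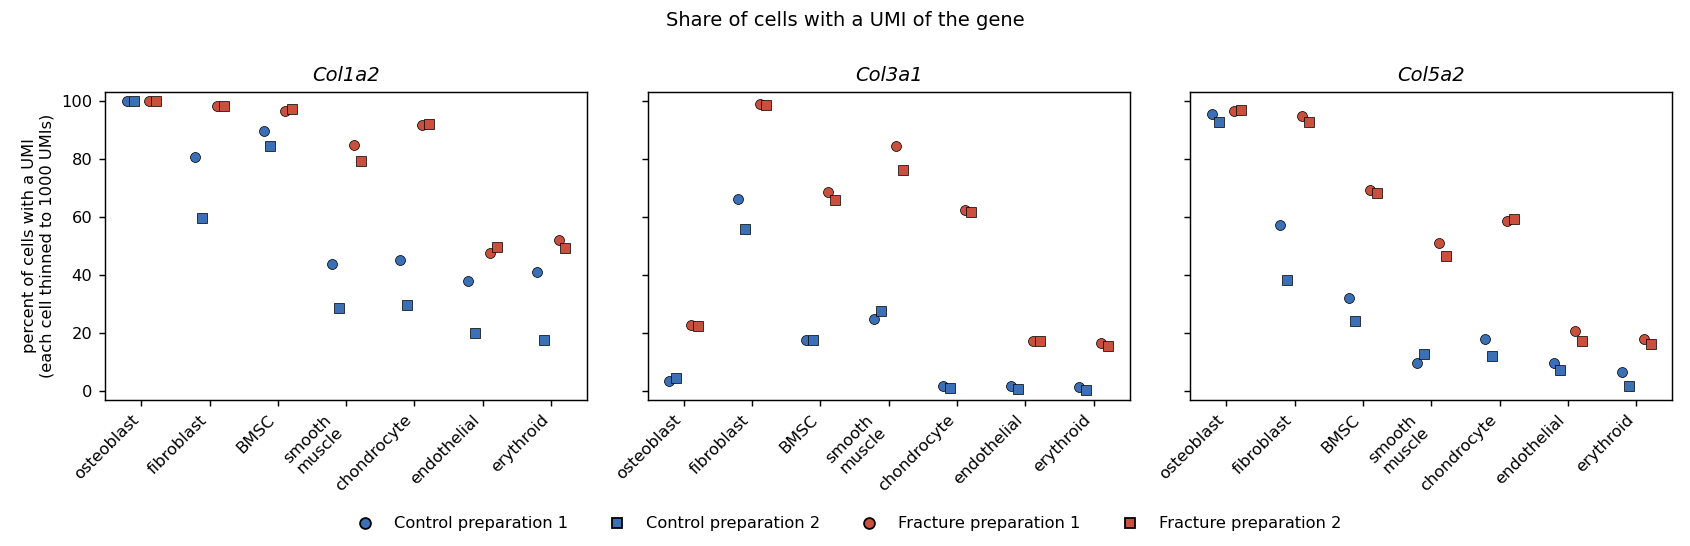
Percent of cells with at least 1 UMI of Col1a2, Col3a1 or Col5a2 in each class, after every cell was thinned to 1000 UMIs. Each point is 1 preparation. For Col3a1 the Fracture points of chondrocyte-like cells (62.4 and 61.7%) stand far above their Control points (1.79 and 1.04%), while those of endothelial-like cells lie beside the erythroid-like points.

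Collagen V, the regulator of fibril diameter, split into 2 patterns. Col5a1 and Col5a2, whose products form the common collagen V trimer, were found in most classes with osteoblast-like cells leading in Control, and Col5a3 was held mainly by 3 classes without them. Col5a2 was at 4517 and 4030 CPM in Control osteoblast-like cells and at 4371 and 4385 CPM in Fracture (log2 -0.03 ± 0.11, adjusted p = 0.88), with overlapping groups. Osteoblast-like Col5a1 was at 572 and 530 CPM in Control and at 786 and 808 CPM in Fracture, a fold change of 1.39 (log2 0.47 ± 0.07, adjusted p = 0.022). That call was lost when the level of the whole erythroid-like class was subtracted. For Col5a1 the erythroid-like level is not read as free RNA shared by all classes, so nothing is read from this loss.

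Col5a1 changed more in other classes, and its leading class changed with it. In Control, osteoblast-like cells were first. In Fracture, fibroblast-like cells were first, at 1694 and 1667 CPM against 390 and 246 CPM in Control (log2 2.47 ± 0.28, adjusted p = 0.012), followed by BMSC-like cells at 915 and 905 CPM against 259 and 227 CPM (log2 2.09 ± 0.10, adjusted p = 0.0014). Fracture osteoblast-like cells came after both and overlapped neither. The BMSC-like place in this order rests on the integration, since without it Fracture BMSC-like cells held 331 and 340 CPM of Col5a1 against 267 and 237 CPM in Control (log2 0.56), below the Fracture osteoblast-like cells. Smooth muscle-like cells went from 54.3 and 88.7 CPM to 509 and 429 CPM (log2 2.75 ± 0.26, adjusted p = 0.0024).

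In Control chondrocyte-like cells Col5a1 stood at 62.8 and 61.0 CPM and in Fracture at 254 and 258 CPM (log2 2.20 ± 0.05, adjusted p = 0.00076). Endothelial-like cells held 25.1 and 19.3 CPM of Col5a1 in Control, less than the other classes, and 119 and 102 CPM in Fracture (log2 2.44 ± 0.16, adjusted p = 0.0058). The trimmed erythroid-like level lay above these Control values, so subtracting it gives no test here.

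Col5a2 was called higher in the 5 classes outside the osteoblast-like one, before any free RNA was subtracted. Fibroblast-like cells went from 1188 and 842 CPM to 3789 and 3720 CPM (log2 1.96 ± 0.24, adjusted p = 0.014). Chondrocyte-like cells went from 263 and 164 CPM to 1213 and 1200 CPM (log2 2.65 ± 0.24, adjusted p = 0.0045). Both Fracture levels were far above the Fracture free RNA level of 76.1 and 72.6 CPM, which comes from trimmed cells. Against the mean of the whole erythroid-like class in Fracture, the mean was 7.06 times as high in fibroblast-like and 2.27 times in chondrocyte-like cells. BMSC-like cells went from 471 and 366 CPM to 1805 and 1808 CPM (log2 2.30 ± 0.16, adjusted p = 0.0019). Smooth muscle-like cells went from 116 and 162 CPM to 1085 and 916 CPM (log2 2.87 ± 0.21, adjusted p = 0.0017), and without integration the log2 value was 1.83, still called. Endothelial-like cells went from 158 and 132 CPM to 521 and 467 CPM (log2 1.90 ± 0.11, adjusted p = 0.0058), but only 20.4 and 17.2% of them had a Col5a2 UMI in Fracture after thinning, against 17.8 and 16.0% of erythroid-like cells. The endothelial-like Fracture level lay among those of the whole erythroid-like class (645 and 419 CPM). With that level subtracted the endothelial-like log2 value was negative.

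Smooth muscle-like cells held Col5a3 at 148 and 268 CPM in Control and at 612 and 616 CPM in Fracture (log2 1.58 ± 0.28, adjusted p = 0.013). Fibroblast-like cells held 93.0 and 143 CPM in Control and 501 and 519 CPM in Fracture (log2 2.21 ± 0.21, adjusted p = 0.0088). The groups did not overlap in either class. BMSC-like cells held it at 128 and 187 CPM in Control and at 163 and 156 CPM in Fracture, where the groups overlapped and no difference was called (log2 0.21 ± 0.19, adjusted p = 0.41). Control levels of BMSC-like cells overlapped those of both other classes. Control smooth muscle-like cells lay just above fibroblast-like cells, but overlapped them without integration (133 and 264 against 87.3 and 143 CPM). No order is therefore read among the 3 classes in Control, whereas the Fracture levels stood apart, with smooth muscle-like cells first.

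Elsewhere Col5a3 was scarce. Osteoblast-like cells had 1.09 and 0.981 CPM in Control and 2.82 and 2.01 CPM in Fracture, which was called (log2 1.14 ± 0.25, adjusted p = 0.045) but lay beside the free RNA level of 1.92 and 2.17 CPM in Fracture. The log2 value became -0.30 after that level was subtracted, and the call was lost with DESeq2. Chondrocyte-like cells had 2.63 and 1.54 CPM against 3.44 and 3.41 CPM (log2 0.79 ± 0.24, adjusted p = 0.064). Endothelial-like cells had 6.83 and 4.18 CPM against 22.6 and 12.3 CPM (log2 1.77 ± 0.40, adjusted p = 0.031), and this call was lost without the osteoblast marker-rich cells.

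Counted by class, every call was of a member higher in Fracture. In osteoblast-like cells 3 of 6 members were higher, where 9.78% of the genes tested were called higher. The count was 6 of 6 in fibroblast-like cells (8.02% of genes), 5 of 6 in BMSC-like cells (25.6%), 5 of 6 in smooth muscle-like cells (15.0%), 5 of 6 in chondrocyte-like cells (19.1%) and 6 of 6 in endothelial-like cells (18.9%). The median log2 fold change of the members was 0.32 in osteoblast-like cells and between 2.08 and 2.44 in the 5 other classes, and over all genes it lay between -0.03 and 0.01. In erythroid-like cells 0 of 5 members tested were called by edgeR, and 0 of 10416 genes (0.00%), although 2220 genes had an unadjusted p under 0.05 and DESeq2 called 936 genes, 5 members among them. The members' log2 values there were 1.61 to 6.78 over the whole class, each with adjusted p of 0.078 or 0.088. With either Fracture preparation left out the spread came from the 2 Control preparations alone, and 0 members were called in osteoblast-like, fibroblast-like and endothelial-like cells, although the log2 values kept their direction for all but Col5a2 in osteoblast-like cells, which was near 0.

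**Figure D3:**
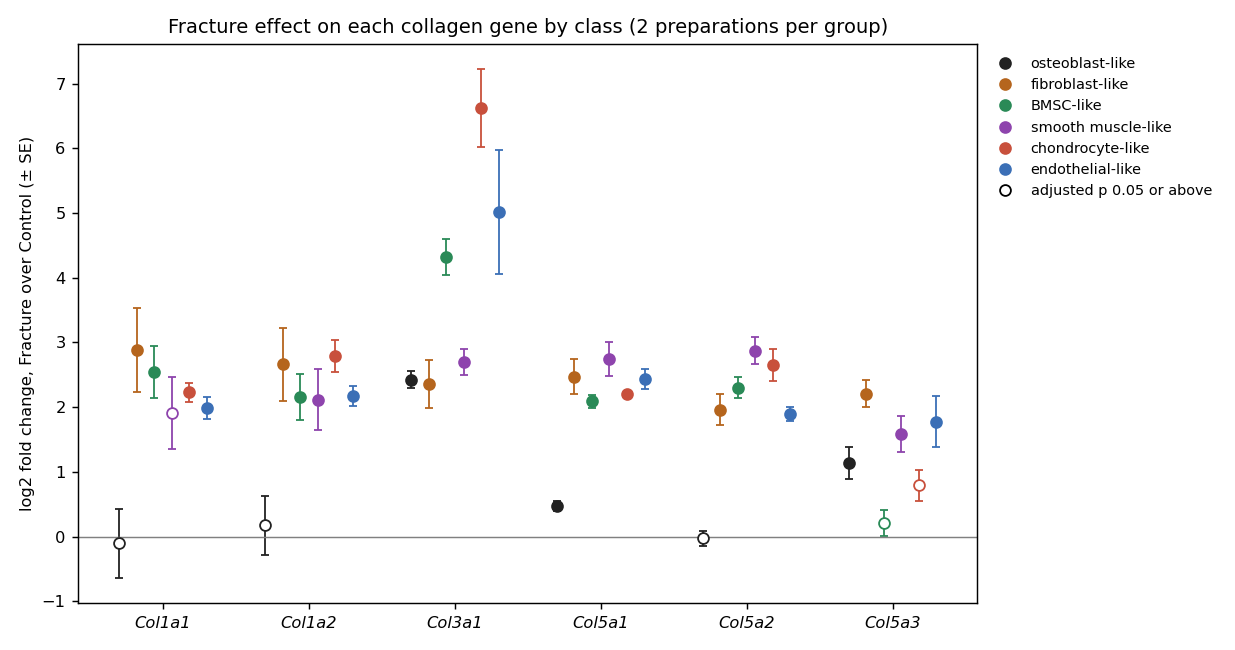
Log2 fold change of each gene, Fracture over Control, in 6 classes (edgeR, 2 preparations per group; bars are ± SE). Filled points passed an adjusted p of 0.05 and open points did not. Osteoblast-like cells lie at or near 0 for Col1a1, Col1a2 and Col5a2, and the highest point is Col3a1 in chondrocyte-like cells at 6.62.

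Markers of other cell types moved with the groups inside the same classes. In endothelial-like cells the summed level of chondrocyte markers (8 of 8 with UMIs) was 2150 and 928 CPM in Control and 14410 and 13370 CPM in Fracture, and that of osteoblast markers (8 of 8) 2120 and 2286 CPM against 4024 and 4794 CPM. Smooth muscle-like cells had chondrocyte markers at 1100 and 1127 CPM against 14530 and 9815 CPM. Fibroblast-like cells had them at 3581 and 3119 CPM against 11210 and 9845 CPM, with their own fibroblast markers at 20800 and 22660 CPM against 7785 and 8356 CPM. Chondrocyte-like cells had osteoblast markers at 6955 and 8651 CPM against 12990 and 13790 CPM. In osteoblast-like cells the osteoblast markers themselves were at 109000 and 126200 CPM in Control and at 46360 and 59870 CPM in Fracture, while no difference in Col1a1 was called. The trim left out cells by osteoblast markers only. The part of the chondrocyte and fibroblast markers in the collagen results was not tested. When the 20% of cells richest in osteoblast markers were left out, all 6 members were called higher in fibroblast-like, chondrocyte-like and smooth muscle-like cells, 5 in BMSC-like cells, 4 in endothelial-like cells and, by edgeR, 0 in erythroid-like cells. Of all genes tested in these trimmed fits 8.28% in fibroblast-like, 19.5% in chondrocyte-like, 14.4% in smooth muscle-like, 25.5% in BMSC-like and 16.0% in endothelial-like cells were called higher, and 0.00% in erythroid-like cells.

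Whether fracture acted differently on the osteoblast-like cells was tested directly, as the difference between each class's fold change and theirs in 1 edgeR fit over 6 classes. For Col1a1, Col1a2, Col5a1 and Col5a2 the effect was called larger in all 5 other classes. Subtracting the whole erythroid-like level gave negative log2 values for Col1a2 and Col5a2 in endothelial-like and for Col1a2 in chondrocyte-like cells. Nothing was left of endothelial-like Col1a2 in both Fracture preparations, and nothing of the others in Fracture preparation 1. These signs follow from levels below the one taken off and are not read as reversed effects. The differences between classes were not recomputed with this subtraction. Without integration the BMSC-like differences in Col1a2 (0.99) and Col5a1 (0.064) were no longer called. No free RNA was subtracted in this fit, and Fracture endothelial-like cells lay below the whole erythroid-like level in Col1a1 and in Col1a2 (7229 and 6467 CPM against 12240 and 9370 CPM). Fracture smooth muscle-like cells also lay below it in both genes (means of 5802.5 and 5046.5 CPM). Fracture chondrocyte-like cells lay below it in Col1a1 (7044 and 6670 CPM against 14807 and 11341 CPM). The difference in Col1a1 was 3.09 ± 0.63 on the log2 scale for fibroblast-like cells (adjusted p = 0.0027) and 2.32 ± 0.62 for chondrocyte-like cells (adjusted p = 0.013), and in Col5a2 it was 2.67 ± 0.24 for chondrocyte-like cells (adjusted p = 5.2e-07). Of all genes 16, 33.1, 20, 20.3 and 24.1% were called in this contrast for fibroblast-like, BMSC-like, smooth muscle-like, chondrocyte-like and endothelial-like cells, against 4, 5, 4, 5 and 5 of the 6 members.

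For Col3a1 the difference was called in some of the other classes only. Osteoblast-like cells themselves had more Col3a1 in Fracture (log2 2.42), as they had more Col5a1 (0.47) and Col5a3 (1.14). The Col3a1 effect was larger by 4.32 ± 0.57 in chondrocyte-like cells (adjusted p = 3.6e-05) and by 2.77 ± 0.57 in endothelial-like cells (adjusted p = 0.0020). In BMSC-like cells it was larger by 1.97 ± 0.54 (adjusted p = 0.0096), but without integration that difference was -0.71. In fibroblast-like cells it differed by 0.09 (approximate 95% interval -0.96 to 1.15) and in smooth muscle-like cells by 0.31 (-0.75 to 1.38), and neither was called. Col5a3 gave no called difference, with the fibroblast-like value at 1.18 (0.15 to 2.20, adjusted p = 0.15), but without integration the BMSC-like difference of -2.27 was called.

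Osteoblast-like, fibroblast-like and BMSC-like cells were also clustered anew together, and 2 of the 4 subclusters were named for the diaphyseal (dpMSC-like) and metaphyseal (mpMSC-like) stroma of the study, from Esm1, Adipoq, Lepr, Cxcl12 and Kitl on one side and Postn, Hey1, Mmp13, Mmp9 and Limch1 on the other. The mpMSC-like cluster carried 4 of its 5 markers, and all 6 septoclast and all 4 cycling markers as well. There were 1732 and 1251 dpMSC-like cells in Control and 422 and 483 in Fracture, and 862 and 473 mpMSC-like cells against 539 and 569. At a finer resolution (0.2) the dpMSC-like name went to 2 subclusters that shifted with the group. One, led by genes such as Cfd, Lpl and Adipoq, held 1117 and 752 cells in Control and 88 and 128 in Fracture. The other, led by genes such as Penk and Actg2, held 530 and 449 against 314 and 316.

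All members rose in the dpMSC-like cells as named with integration. No dpMSC-like value was computed without integration, where Fracture BMSC-like cells held only 1116 and 1051 CPM of Col3a1 and the Fracture fibroblast-like class had 1098 and 1239 cells instead of 697 and 828. Dpt, a fibroblast gene whose product binds collagen fibrils, also rose in dpMSC-like cells, from 0.962 and 0.216 to 148 and 262 CPM (TMM-scaled, log2 8.40, adjusted p = 0.00099). The part of fibroblast-like cells in the dpMSC-like values was not tested. Col1a1 was at 1221 and 1149 CPM there in Control and at 21103 and 21429 CPM in Fracture, a fold change of 21.4 (log2 4.42 ± 0.34, adjusted p = 0.0011). Col3a1 went from 489 and 277 CPM to 11390 and 12652 CPM (log2 5.23 ± 0.41, adjusted p = 0.0011), and Col5a2 from 347 and 284 CPM to 2527 and 2588 CPM (log2 3.28 ± 0.16, adjusted p = 0.0005). Neither group's preparations overlapped the other's for these genes. Col5a3, for which no difference was called in the BMSC-like class, went from 168 and 216 CPM to 322 and 373 CPM in the dpMSC-like cells (log2 1.11 ± 0.17, adjusted p = 0.0056). The count was thus 6 of 6 members, where 26.4% of genes were called higher.

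In mpMSC-like cells Col1a1 started higher, at 8945 and 6845 CPM in Control, and was at 17212 and 16611 CPM in Fracture (log2 1.22 ± 0.21, adjusted p = 0.016). Col3a1 went from 266 and 213 CPM to 1297 and 1234 CPM (log2 2.52 ± 0.13, adjusted p = 0.0038). Col5a3 was at 79.0 and 126 CPM against 96.6 and 97.5 CPM and was not called (adjusted p = 0.89). In these cells 5 of 6 members were called higher, against 15.3% of genes. With the whole erythroid-like level subtracted 1 call was left, that of Col3a1, and the log2 values were -0.49 for Col1a1, -0.54 for Col1a2 and -0.12 for Col5a1. The Col5a1 value is not read, since its erythroid-like level is not taken as free RNA. With the free RNA level subtracted 5 were called. The 2 subclusters' effects were not compared by a test.

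The UMIs of the 2 collagen I genes stood in different ratios in different classes, which compares classes and not the levels of the genes. The ratio of Col1a1 to Col1a2 UMIs was 1.46 and 1.53 in Control osteoblast-like cells and 1.23 and 1.24 in Fracture. The whole erythroid-like class lay near the osteoblast-like ratio of its own group, with 1.57 and 1.52 in Control and 1.21 and 1.21 in Fracture. Most of its Col1a1 UMIs were in the 20% of its cells richest in osteoblast markers. In its remaining cells Col1a1 against Col1a2 was at 437 against 340 and 149 against 107 CPM in Control. In Fracture it was at 906 against 792 and 646 against 649 CPM. Fracture fibroblast-like (1.22 and 1.20) and BMSC-like cells (1.20 and 1.19) also lay near the osteoblast-like ratio. Chondrocyte-like cells were at 0.948 and 1.18 in Control and 0.724 and 0.688 in Fracture, so that the ratio was below 1 in both Fracture preparations. No other class drawn in the plot of this ratio was below 1 in either Fracture preparation. The dpMSC-like ratio went the other way, from 0.474 and 0.486 in Control to 1.19 and 1.23 in Fracture. These ratios are a description, with no test.

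**Figure D4:**
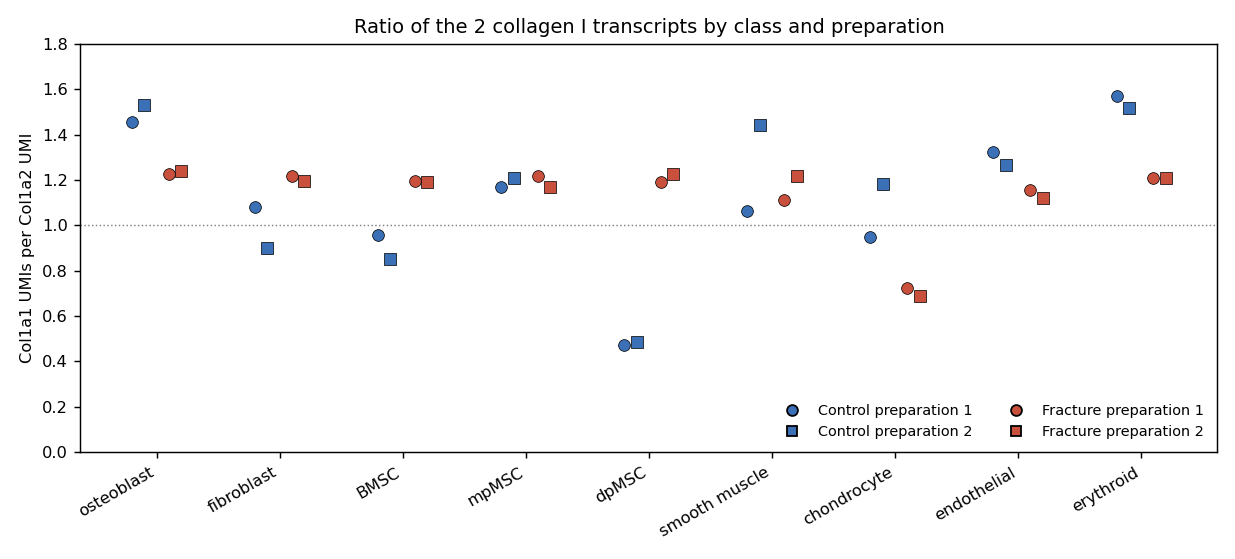
Col1a1 UMIs per Col1a2 UMI in each class, 1 point per preparation. The dotted line marks equal UMIs. Fracture chondrocyte-like cells (0.724 and 0.688) and Control dpMSC-like cells (0.474 and 0.486) lie below it. Points of the whole erythroid-like class lie near the osteoblast-like points of the same group, as those of fibroblast-like and BMSC-like cells do in Fracture.

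Mixture with collagen III differed more widely. In fibroblast-like cells there were 111 and 216 Col3a1 UMIs per 100 Col1a1 UMIs in Control and 93.8 and 92.9 in Fracture. In chondrocyte-like cells the same ratio was 1.57 and 0.710 in Control and 24.7 and 25.1 in Fracture, and in osteoblast-like cells 0.0401 and 0.0471 against 0.259 and 0.246. Of the 7 classes, fibroblast-like cells had the most Col3a1 relative to Col1a1 in all 4 preparations, and osteoblast-like cells the least.

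Which cells held the UMIs of each gene shifted with both level and cell number. Osteoblast-like cells held 93.6 and 95.9% of all Col1a1 UMIs in Control and 67.5 and 69.5% in Fracture, where chondrocyte-like cells held 17.7 and 16.2%. For Col5a2 the osteoblast-like share was 84.7 and 88.7% in Control and 32.5 and 33.3% in Fracture, and the chondrocyte-like share went from 4.77 and 2.18% to 44.2 and 43.3%. The largest share of Col3a1 was held by fibroblast-like cells in both groups, 60.3 and 43.6% in Control and 41.9 and 44.9% in Fracture, but chondrocyte-like cells went from 2.98 and 1.25% to 38.4 and 36.9%. Col5a3 passed from BMSC-like cells, with 65.3 and 78.7% in Control, to fibroblast-like cells, with 55.0 and 60.4% in Fracture. The chondrocyte-like class grew from 2070 and 676 cells to 6810 and 7143 cells in the libraries, and the number of cells recovered depends on the preparation as well as on the bone.

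**Figure D5:**
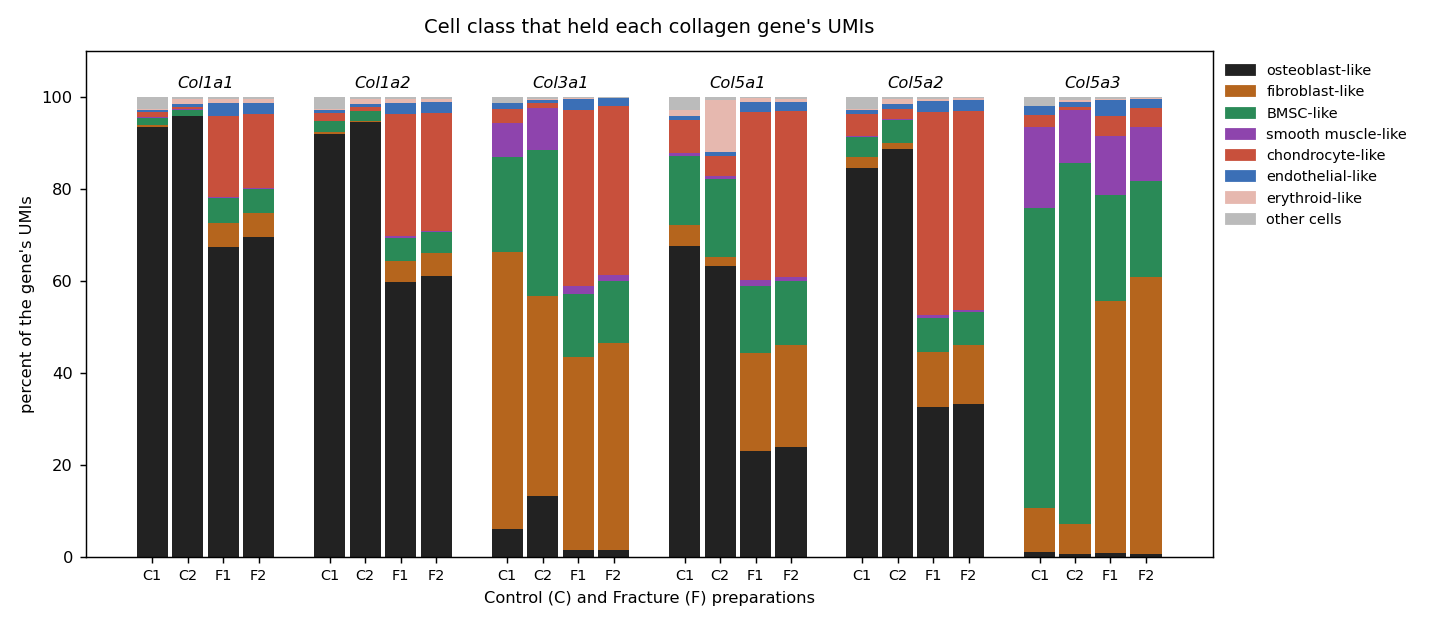
Percent of each gene's UMIs held by each class, for Control (C1, C2) and Fracture (F1, F2) preparations. Bars reach 100%. The osteoblast-like part (black) of Col1a1 is above 90% in Control and below 70% in Fracture, and the chondrocyte-like part (red) of Col3a1 goes from 2.98 and 1.25% to 38.4 and 36.9%.

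Summed over all kept cells of a preparation, no difference in collagen I was called. Col1a1 was at 35036 and 31261 CPM in Control and at 25184 and 25599 CPM in Fracture (log2 -0.10 ± 0.34, adjusted p = 0.84), and Col1a2 was at 24484 and 20665 CPM against 23099 and 23497 CPM (adjusted p = 0.47). In plain CPM of Col1a1 both Fracture preparations thus lay below both Control preparations. On the TMM-scaled CPM of the test the groups overlapped, at 32011 and 28112 in Control and 27665 and 28381 in Fracture. In such sums fewer cells of a type and less RNA per cell cannot be told apart. Of the 6 members 4 were called, all higher, against 13.6% of genes. They were Col3a1 (log2 4.40 ± 0.46, adjusted p = 0.012), Col5a1 (1.48 ± 0.13, adjusted p = 0.0094), Col5a2 (0.89 ± 0.20, adjusted p = 0.043) and Col5a3 (1.16 ± 0.18, adjusted p = 0.022).

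Across 24 sums, 6 classes without the erythroid-like one in 4 preparations, the 2 collagen I genes had the most similar patterns among the members, with r = 0.992 for log2(CPM + 1). Points of 1 preparation share libraries and points of 1 class share a base level, so these values are descriptions. Among 6604 genes, Col1a1 was next most like Serpinf1 (r = 0.944), which encodes the secreted factor PEDF, and Wisp1 (0.928), and Col1a2 was next most like Serpinf1 (0.946) and Fkbp7 (0.941). Col3a1 was most like the metallothionein gene Mt1 (0.952), Cd248 (0.919), which encodes the stromal surface protein endosialin, and Rab31 (0.918). Col5a1 was most like Pcolce (0.953), whose product enhances procollagen C-propeptide removal, Mmp2 (0.924) and Pdgfc (0.921). Col5a2 was most like the gelatinase gene Mmp2 (0.946), Serpinf1 (0.941) and Tmem119 (0.935). Col5a1 and Col5a2 were alike (0.915), while Col5a3 stood apart from both, with r = 0.327 to Col5a1 and -0.02 to Col5a2, and was most like Glipr2 (0.974), Ift27 (0.963) and Parp3 (0.961).

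Genes of the machinery that modifies and folds these collagens were mostly called higher too. Of 19 genes for prolyl and lysyl hydroxylation and folding, 13 were called higher and 1 lower in osteoblast-like cells, 14 and 0 in fibroblast-like cells, 16 and 2 in BMSC-like cells, 16 and 1 in smooth muscle-like cells, 14 and 1 in chondrocyte-like cells and 15 and 0 in endothelial-like cells. Of all genes tested, 9.78, 8.02, 25.6, 15.0, 19.1 and 18.9% were called higher and 6.71, 7.91, 25.8, 13.3, 18.0 and 16.8% lower in the same order of classes. The median log2 fold change of the 19 genes was between 0.60 and 1.31, against -0.03 to 0.01 for all genes. On the TMM-scaled CPM used for these lists, P4ha2, a prolyl hydroxylase subunit, went from 98.6 and 99.7 to 209 and 214 CPM in osteoblast-like cells (log2 1.09, adjusted p = 0.0028), while Plod2, a lysyl hydroxylase, fell by 0.62 on the log2 scale (adjusted p = 0.0105). In fibroblast-like cells the collagen chaperone gene Serpinh1 rose by log2 1.59 (adjusted p = 0.018).

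Of 12 genes for propeptide removal and crosslinking, 10 to 12 could be tested in each of the 6 classes. Of these, 5 to 9 were called higher and 0 to 2 lower, beside the shares of all genes given above. In chondrocyte-like cells Lox, which starts the crosslinking of fibrils, went from 53.4 and 43.0 to 445 and 472 CPM (log2 3.25, adjusted p = 0.0012). Of 18 fibril-associated and fibril-binding matrix genes (16 to 18 tested per class), 8 were higher and 0 lower in osteoblast-like cells, 10 and 1 in fibroblast-like, 15 and 1 in BMSC-like, 14 and 1 in smooth muscle-like, 9 and 4 in chondrocyte-like (median log2 fold change 0.29) and 16 and 0 in endothelial-like cells. Among them Postn in chondrocyte-like cells went from a mean of 3.88 to 205 CPM (log2 5.67, adjusted p = 0.010), while Tnxb in fibroblast-like cells fell by 2.46 on the log2 scale (adjusted p = 0.0045).

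Of the other fibrillar collagens 5 were listed (Col2a1, Col11a1, Col11a2, Col24a1, Col27a1). Called higher were 4 of 5 in fibroblast-like, 5 of 5 in BMSC-like and 4 of 4 tested in smooth muscle-like cells, with 0 lower. In chondrocyte-like cells, in which 5 of the 6 interstitial genes rose, 0 were called higher and 1 lower by edgeR. Of all genes tested there 19.1% were called higher and 18.0% lower, so nothing is read from that count. The shares of all genes in the other classes are given above. In osteoblast-like cells 1 was higher and 1 lower, with Col2a1, the cartilage collagen, down by 0.86 on the log2 scale (adjusted p = 0.013). In endothelial-like cells, where chondrocyte markers were also high, 4 were higher, and Col2a1 went from 1436 and 629 to 10640 and 10260 CPM (log2 3.34, adjusted p = 0.012). Of 10 collagen receptor genes, 7 to 9 could be tested in each class, of which 0 to 4 were called higher and 1 to 4 lower. In BMSC-like cells 2 of 9 were higher and 4 lower, where 25.6% and 25.8% of all genes were, and nothing is read from such counts. Mrc2, an uptake receptor for collagen, rose in fibroblast-like (log2 0.67), BMSC-like (0.96) and smooth muscle-like cells (2.17), and Itga1, an integrin subunit for collagen, fell by 1.91 in BMSC-like, by 1.79 in fibroblast-like and by 1.54 in endothelial-like cells on the log2 scale. In chondrocyte-like cells Itga1 rose instead, from 13.74 and 13.15 to 24.11 and 24.96 CPM (log2 0.87, adjusted p = 0.0033).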

How the data were processed

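The authors deposited raw UMI counts per gene and cell for 8 libraries (mm10). The submitters' processing notes name bcl2fastq 2.19.1.403, UMI-tools 1.0.0, STAR 2.7.3a and featureCounts 1.6.4. Cells with 500 to 6000 genes and at most 25% mitochondrial UMIs were kept. Libraries were integrated in Seurat 5.3.0 (30 dimensions, 2000 variable genes, less cell cycle genes, the members and the listed genes) and clustered (12 components, resolution 0.1), and osteoblast-like, fibroblast-like and BMSC-like cells together were subclustered (13 components, 0.08). Scrublet in scanpy 1.11.5 called 718 cells (1.58%) as doublets, which were kept except in an alternative. Counts were summed per class and preparation (n = 2 per group, both libraries added) and tested with edgeR 4.0.16 in R 4.3.3 (quasi-likelihood, TMM, filterByExpr, Benjamini-Hochberg adjustment, threshold 0.05). DESeq2 1.42.0 was an alternative. The test was also run on simulated data, with results that are not given here. Printed levels of the members are plain CPM, and fold changes are from edgeR. Differences between classes had the preparation as a block. Named genes were the members, the 3 genes most like each (mean of at least 20 CPM), and up to 2 called genes in each direction per list and class, of which examples are given. Members and lists were chosen with earlier results of these data known. Nothing in the labels ties preparations to separate animals. The free RNA level, the trim of 20% and the levels without integration were chosen after seeing the data.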

Additional observations from a re-analysis of the deposited data

Results flagged for a closer look

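These results are the differences between the fracture effect of a class and that of osteoblast-like cells which passed the test of the difference itself (edgeR, adjusted p under 0.05), on the log2 scale. In fibroblast-like cells the effect was larger by 3.09 for Col1a1, 2.59 for Col1a2, 2.03 for Col5a1 and 2.05 for Col5a2. In BMSC-like cells it was larger by 2.65 for Col1a1, 1.98 for Col1a2, 1.97 for Col3a1, 1.598 for Col5a1 and 2.31 for Col5a2. Without integration the BMSC-like difference was -0.71 for Col3a1 and, no longer called, 0.99 for Col1a2 and 0.064 for Col5a1. In smooth muscle-like cells it was larger by 1.99 for Col1a1, 1.91 for Col1a2, 2.40 for Col5a1 and 2.94 for Col5a2. In chondrocyte-like cells it was larger by 2.32 for Col1a1, 2.62 for Col1a2, 4.32 for Col3a1, 1.70 for Col5a1 and 2.67 for Col5a2. In endothelial-like cells it was larger by 2.07 for Col1a1, 1.98 for Col1a2, 2.77 for Col3a1, 1.95 for Col5a1 and 1.91 for Col5a2. Free RNA was not subtracted from the values of any class in this list. In Fracture the endothelial-like, chondrocyte-like and smooth muscle-like levels of Col1a1 lay below that of the whole erythroid-like class.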

How the results depend on the processing

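With 1 preparation left out, the number of members called ranged from 0 to 3 in osteoblast-like, 0 to 6 in fibroblast-like, endothelial-like, erythroid-like and mpMSC-like, 3 to 6 in BMSC-like and smooth muscle-like, 2 to 6 in chondrocyte-like and 5 to 6 in dpMSC-like cells. Members whose effect differed from osteoblast-like cells ranged from 2 to 6 for fibroblast-like, 2 to 5 for BMSC-like, 2 to 4 for smooth muscle-like, 3 to 5 for chondrocyte-like and 2 to 5 for endothelial-like cells. In the erythroid-like class the count of 0 became 5 with DESeq2, 6 with no filter on low counts, 4 with the replicate block, 5 with libraries as samples and 6 without integration. Subtracting the level of the whole erythroid-like class left 0 calls in osteoblast-like, 3 in smooth muscle-like, 3 in chondrocyte-like, 2 in endothelial-like (1 of them Col1a2, as lower) and 1 in mpMSC-like cells. Fracture endothelial-like Col1a2 lay below the level taken off in both preparations, so its call as lower is not read. Without integration 3 members differed between BMSC-like and osteoblast-like cells.

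Log2 values changed sign as follows. No size or sign is read where a preparation was at or near 0 after subtraction, as Fracture Col1a2 of endothelial-like cells was, below the level taken off. With the whole erythroid-like level subtracted they were -1.68 for Col3a1 in osteoblast-like, -0.59 for Col1a2 and -2.52 for Col5a3 in chondrocyte-like, -14.88 for Col1a2 and -1.39 for Col5a2 in endothelial-like, and -0.49 for Col1a1, -0.54 for Col1a2 and -0.12 for Col5a1 in mpMSC-like cells. With the free RNA level subtracted Col5a3 was at -0.30 in osteoblast-like and -0.10 in chondrocyte-like cells. Osteoblast-like Col5a2 was at 0.035 without TMM and between -0.082 and 0.022 with 1 preparation left out (0.0035 without Fracture preparation 1). Col5a3 was at -0.57 without integration and between -0.028 and 0.50 with 1 preparation left out in BMSC-like cells, and at -0.075 without TMM and between -0.23 and 0.43 in mpMSC-like cells, the lowest without Control preparation 1 and the highest without Control preparation 2. Differences from osteoblast-like cells in Col3a1 were -0.096 without TMM, -0.59 without integration and between -0.56 (without Control preparation 2) and 0.62 (without Control preparation 1) for fibroblast-like, -0.71 without integration for BMSC-like and -0.0071 without integration for smooth muscle-like cells, and that of Col5a3 for chondrocyte-like cells was between -0.63 (without Fracture preparation 2) and 0.065 (without Control preparation 1). The cause was not tested.

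Same-numbered preparations deviated together little (correlations of -0.00077 to 0.133), so they share only a number. With the replicate block 2 members were called in osteoblast-like, 6 in fibroblast-like, 5 in BMSC-like, 5 in smooth muscle-like, 5 in chondrocyte-like and 6 in endothelial-like cells. With 2 preparations per group the power for small changes is low, and subtractions and trims were chosen after seeing the data.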
